A study of Mus musculus with 6 samples.

Results

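Pheta1, Arl4d, Hmga1, Dnah6, Spty2d1 and Ice1 are 6 of the 14250 rows in a gene expression table of mouse anterior cingulate cortex (ACC), a frontal cortical region tied to mood and pain. They were picked by name because their read counts separated mice given lipopolysaccharide (LPS, a bacterial endotoxin that sets off inflammation) from mice given saline, and because they belong to no common response pathway. That separation therefore chose them, so their LPS and saline values are given below as a description. Calls from the comparison that chose them are stated as part of that choice and support nothing. All mice were C57BL/6. The LPS group received 50 µg per kg intraperitoneally on postnatal day 14, the saline group received pyrogen-free saline on the same day, and ACC was dissected by hand from perfused brains on postnatal day 45. Each group had 3 libraries of polyadenylated RNA, each from 1 mouse, and the sources used here do not give sex or litter.

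The libraries held 36168687 to 41270737 counts in LPS mice and 37416194 to 39804999 in saline mice. All 14 excitatory cortical neuron markers looked for had a row, with summed levels of 6753 to 7110 CPM in LPS libraries and 6535 to 7303 CPM in saline libraries. CPM is the count scaled to the library's size, here with TMM factors. Of 28 immediate early genes, the transcripts that cells induce within minutes of a stimulus, 10 were called lower in LPS mice by edgeR (adjusted p under 0.05) and 0 higher, where 0.189% of all rows were called lower and 0.0982% higher, and this list summed to 1935 to 2507 CPM in LPS libraries and 3013 to 4176 CPM in saline libraries. Rows without an annotated gene took 1.61% to 2.03% of the counts in LPS libraries, against 2.51% to 2.93% in saline libraries. The part of either in the values below was not tested. In bulk tissue, fewer cells of a type and less RNA per cell cannot be told apart.

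The 6 genes work in different parts of the cell. Pheta1 codes for an adaptor with a pleckstrin homology domain that binds the phosphoinositide phosphatase OCRL on endosomes and helps receptors recycle, and Arl4d for a small GTPase of the ARF family that recruits ARF exchange factors of the cytohesin family to the plasma membrane. Hmga1 codes for an architectural chromatin protein that binds the minor groove of AT-rich DNA and is best known from embryonic and dividing cells. Spty2d1 is the mammalian relative of yeast Spt2, a chaperone of histones H3 and H4. Ice1 codes for the scaffold of the little elongation complex, which promotes transcription of small nuclear RNA genes by RNA polymerase II. Dnah6 codes for a heavy chain of axonemal dynein, a motor of motile cilia.

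Each gene lies on a chromosome of its own. In GRCm38 with GENCODE M21, Pheta1 is on the plus strand at chr5:121848984-121854632, Arl4d on the plus strand at chr11:101665541-101667832 and Hmga1 on the plus strand at chr17:27556497-27563674. Dnah6 is on the minus strand at chr6:73017606-73221651, Spty2d1 on the minus strand at chr7:46990396-47008411 and Ice1 on the minus strand at chr13:70551707-70637634. They span from 2.3 kb for Arl4d, with 2 exons, to 204.0 kb for Dnah6, whose longest annotated transcript has 77. All 6 are protein coding.

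The promoter sequences of the 4 genes whose level differed by about 2-fold or more are shown because these genes separated the groups together, Pheta1 and Arl4d lower and Hmga1 and Dnah6 higher in LPS mice. Each run, from RefSeq on GRCm38.p6, ends just before the gene's outermost GENCODE start and reads 5′ to 3′ on the gene's strand. Capitals mark letters of the motifs searched for on both strands.
Pheta1 (chr5:121848804-121848983, plus strand): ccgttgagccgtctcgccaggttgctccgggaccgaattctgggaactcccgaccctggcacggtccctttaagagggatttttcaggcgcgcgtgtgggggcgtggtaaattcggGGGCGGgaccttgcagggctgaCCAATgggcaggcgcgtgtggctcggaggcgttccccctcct
Arl4d (chr11:101665361-101665540, plus strand): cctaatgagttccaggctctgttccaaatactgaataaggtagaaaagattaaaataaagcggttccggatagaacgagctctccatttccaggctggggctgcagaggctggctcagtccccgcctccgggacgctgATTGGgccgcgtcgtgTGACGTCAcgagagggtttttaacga
Hmga1 (chr17:27556324-27556496, plus strand): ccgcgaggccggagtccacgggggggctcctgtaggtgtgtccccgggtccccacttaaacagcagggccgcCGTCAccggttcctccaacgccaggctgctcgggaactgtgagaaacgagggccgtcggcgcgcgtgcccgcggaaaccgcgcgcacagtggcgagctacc
Dnah6 (chr6:73221652-73221831, minus strand): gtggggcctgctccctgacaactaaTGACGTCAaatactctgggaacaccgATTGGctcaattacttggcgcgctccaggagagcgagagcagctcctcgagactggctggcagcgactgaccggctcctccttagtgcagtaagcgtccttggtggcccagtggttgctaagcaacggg

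The motifs were the cAMP response element TGACGTCA (CRE) and its shorter form TGACG, the E-box CACGTG, the GC box GGGCGG, the CCAAT box, the TATA box TATAAA and the AP-1 site TGACTCA. The shorter CRE form also matches within every full one. Over the whole RefSeq window, 250 bases before to 50 after a gene's start, the full CRE was found in Arl4d, 26 bases before the start, and in Dnah6, 175 bases before it. These 2 genes differed between the groups in opposite directions. The full CRE stood in 1.8% of all 32851 windows of this length. GC boxes were found in Pheta1, Hmga1, Spty2d1 and Ice1, and in 35.7% of all windows. Those of Hmga1 lie outside the run shown above. CCAAT was found in Pheta1, Arl4d, Dnah6 and Spty2d1, and in 37.4% of all windows. The TATA box, E-box and AP-1 letters were found in none of the 6 genes' windows, against 13.6%, 7.2% and 5.2% of all windows. Letters alone do not show that a factor binds there.

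Pheta1 had the lowest level among the 4 genes that were lower in LPS mice and the widest separation of all 6. It had 1.41, 1.53 and 1.26 CPM in the LPS libraries, from 59, 62 and 46 counts, against 7.65, 9.44 and 7.83 CPM in the saline libraries, from 292, 378 and 298 counts. Every LPS library was below every saline library, and the lowest saline library was 4.99 times the highest LPS library. The fitted log2 difference, LPS minus saline, was -2.57 (SE 0.164), so that the level in saline mice was 5.92-fold that in LPS mice. Only 4 other rows of the table had a log2 difference as low or lower.

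Arl4d had a level 0.506 times that of saline mice in LPS mice. Its values were 14.8, 18.8 and 16.2 CPM in the LPS libraries, against 31.7, 36.2 and 30.4 CPM in the saline libraries. The groups did not overlap, and in both groups the second library was the highest. The log2 difference was -0.98 (SE 0.108).

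Spty2d1 and Ice1 differed less, and the libraries of Spty2d1 lay close together within each group. Spty2d1 had 21.2, 20.3 and 22.2 CPM in the LPS libraries, against 29.9, 30.0 and 28.4 CPM in the saline libraries. Ice1 had 94.2, 81.4 and 88.1 CPM in the LPS libraries, against 119, 124 and 133 CPM in the saline libraries. Neither gene's groups overlapped, but the gap was narrow: the lowest saline library was 1.28 times the highest LPS library for Spty2d1 and 1.26 times for Ice1. The log2 differences were -0.47 (SE 0.0735) for Spty2d1 and -0.51 (SE 0.0714) for Ice1. As many as 651 rows of the table differed by at least as much as Spty2d1 in either direction, and 525 by at least as much as Ice1, against 7 for Pheta1, each gene itself included.

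Hmga1 and Dnah6 had the higher level in LPS mice. Hmga1 had 31.4, 31.9 and 34.4 CPM in the LPS libraries, against 15.2, 16.5 and 15.9 CPM in the saline libraries. The lowest LPS library was 1.91 times the highest saline library, and the log2 difference was 1.04 (SE 0.0772). Dnah6 had 2.58, 2.87 and 2.90 CPM in the LPS libraries, from 108, 116 and 106 counts, against 0.445, 0.400 and 0.736 CPM in the saline libraries, from 17, 16 and 28 counts. The third saline library was the highest of its group but still lay below every LPS library. The log2 difference of Dnah6 was 2.40 (SE 0.286), or a level 5.26-fold that of saline mice.

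**Figure D1:**
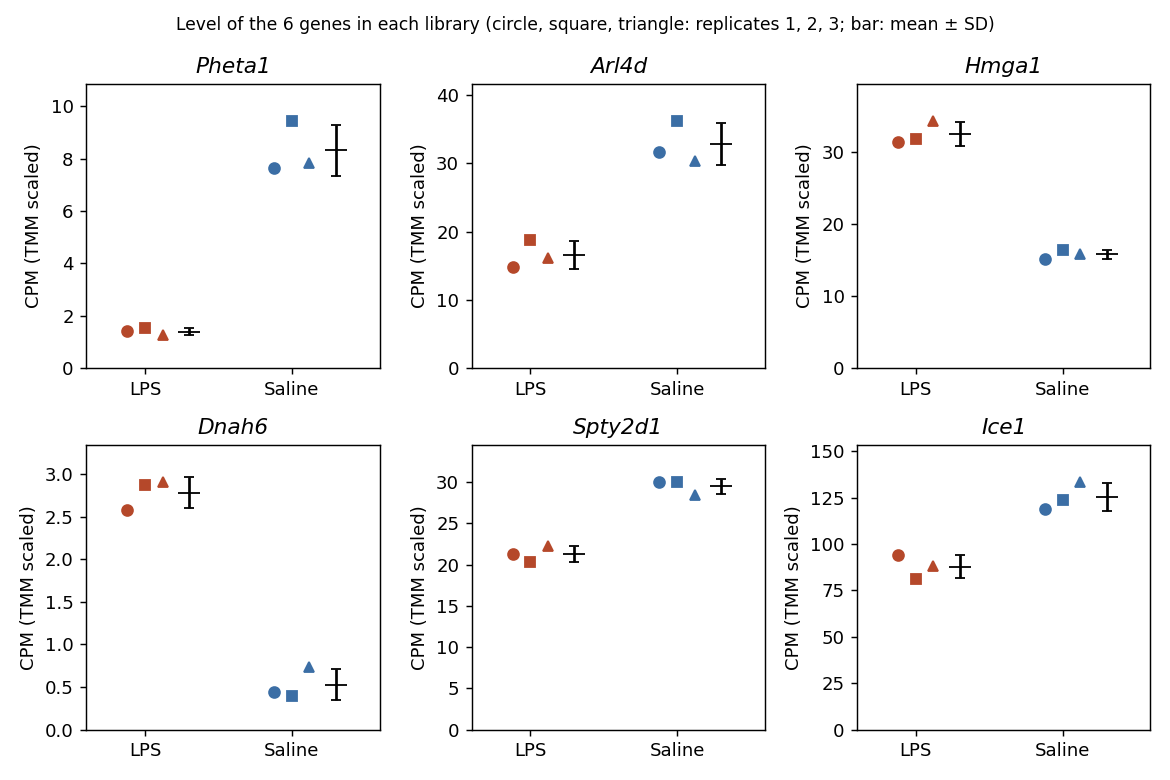
CPM (vertical axes, starting at 0) of each gene in the 3 LPS libraries (left, red) and the 3 saline libraries (right, blue), with the mean and SD of each group beside the points. In every panel the groups are apart, from 2.58 to 2.90 against 0.400 to 0.736 CPM in Dnah6 to 81.4 to 94.2 against 119 to 133 CPM in Ice1.

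All 6 genes were among the rows that passed edgeR's quasi-likelihood test at an adjusted p under 0.05, 4 lower, where 0.189% of all rows passed, and 2 higher, where 0.0982% passed (0.288% in both directions). All 6 had groups that did not overlap, as had 6.84% of all rows with LPS lower and 6.84% with LPS higher (13.7% together). These facts entered the choice of the genes and support nothing further. With 1 library left out in turn, edgeR called Pheta1, Arl4d, Hmga1 and Dnah6 in 6 of 6 fits, Ice1 in 2 (without LPS 1 or without Saline 1) and Spty2d1 in 0. Over all 14250 rows, these fits called 14 to 20 higher and 22 to 35 lower. They reuse the libraries that chose the genes, so they too support nothing further. Without Dnah6, the spread within groups ran from below to above that of the median row. The coefficient of variation ran from 4.41% in Spty2d1 to 12.1% in Arl4d in LPS mice, where the median row had 7.71%, and from 2.97% in Spty2d1 to 11.9% in Pheta1 in saline mice, where the median row had 7.31%. Dnah6 had 34.6% in saline mice, the highest of the 6 genes, and 6.47% in LPS mice.

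Per length, the genes held different places among the expressed genes of this tissue. The authors' FPKM, a count scaled for gene length and library depth, placed Hmga1 at 18.1 ± 0.971 in LPS and 10.3 ± 0.665 in saline mice (SD, n = 3 each), and Arl4d at 10.9 ± 1.08 in LPS and 21.7 ± 2.25 in saline mice. The order of these 2 genes was thus opposite in the 2 groups. Ice1 had 11.0 ± 0.901 FPKM in LPS and 15.3 ± 1.48 FPKM in saline mice, and Spty2d1 had 3.71 ± 0.216 and 5.17 ± 0.137 FPKM in LPS and saline mice. In LPS mice the levels of Arl4d and Ice1 were within 1 SD of each other. Pheta1 was lower, at 0.850 ± 0.242 FPKM in LPS and 3.23 ± 0.435 FPKM in saline mice. Dnah6 was the lowest, at 0.200 ± 0.00987 FPKM in LPS and 0.0370 ± 0.0142 FPKM in saline mice. This was in the lowest 0.400% of the deposited rows in LPS mice and the lowest 0.00702% in saline mice.

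The authors' FPKM and their counts gave different sizes of difference for Pheta1 and Hmga1. FPKM in saline mice was 3.80 times that in LPS mice for Pheta1, against 5.92-fold from the counts, and FPKM in LPS mice was 1.76 times that in saline mice for Hmga1, against 2.05-fold from the counts. Within a gene of fixed length the ratio of FPKM to CPM should not vary between libraries once each library's median is set to the same value. For Pheta1 this ratio, relative to the mean of the saline libraries, was 1.39, 1.93 and 1.34 in the LPS libraries and 1.00 in each saline library. Only 0.232% of rows departed as far between the groups. For Hmga1 the ratio was 0.884, 0.848 and 0.856 in the LPS libraries and 0.995, 0.994 and 1.01 in the saline libraries, and 2.92% of rows departed as far. In Arl4d, Spty2d1, Ice1 and Dnah6 the ratio of LPS to saline means was 0.997 to 1.03. In GENCODE M21, Hmga1 has 17 annotated transcripts, Ice1 7, Dnah6 4, Pheta1 3, Spty2d1 2 and Arl4d 1. The sources used here do not say how the authors set a gene's length in each library, and the part of transcript choice in this shift was not tested.

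**Figure D2:**
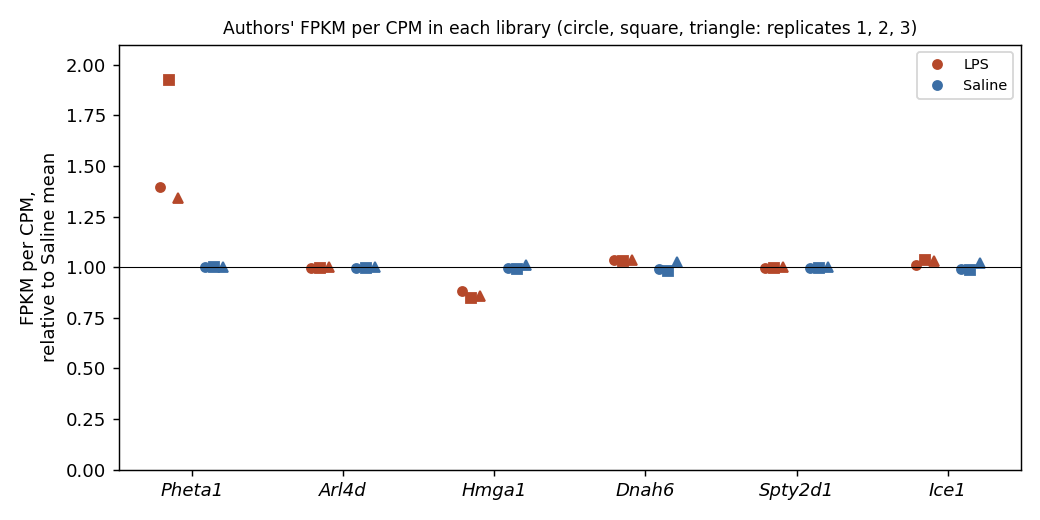
The authors' FPKM per CPM in each LPS (red) and saline (blue) library, relative to the mean of the saline libraries of the same gene (vertical axis, a ratio with no unit). Pheta1 lies at 1.34 to 1.93 and Hmga1 at 0.848 to 0.884 in LPS libraries, and the other genes lie near 1 in both groups.

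Hmga1 has a near-identical copy, so its reads are uncertain. Hmga1b is a single-exon gene at chr11:120762794-120764419 on the plus strand, and 54.95% of the 2553 distinct stretches of 50 bases in the annotated Hmga1 transcripts also occur in its transcript. Hmga1b had 519, 581 and 471 counts in the LPS libraries, against 553, 452 and 485 counts in the saline libraries. These groups overlapped, with a log2 difference of 0.04 (SE 0.116, edgeR adjusted p = 0.962). With the counts of both rows summed, a comparison chosen after their values were seen, the log2 difference was 0.67 (SE 0.0680). Hmga1 also shares 102 bases of exon, 4.80% of its own, with AI413582 on the opposite strand, which had 14.3 ± 3.63 CPM in LPS and 17.1 ± 2.97 CPM in saline mice (SD, n = 3 each; edgeR adjusted p = 0.832). The library kit is not stated to keep the strand. No stretch of 50 bases in Pheta1 or Arl4d was found in another gene, and the shares were 0.910% for Dnah6, 5.70% for Spty2d1 and 0.740% for Ice1.

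The next question was whether genes that act with these 6 differed as well. Among 30 measured endosome and OCRL partners of Pheta1, edgeR called 0 in either direction, DESeq2, which called 0.982% of all rows, and limma-voom, which called 0.267%, also called 0, and 0 had an unadjusted p under 0.05, where 7.17% of all rows did. Groups did not overlap in 2, with LPS lower in both, or 6.67% of the list, against 13.7% of all rows. The list's median log2 difference was -0.02, beside 0.001 over all rows. The range was -0.15 for Rab11a, a recycling endosome GTPase, to 0.22 for Sh3kbp1, an endocytic adaptor. By the authors' FPKM, Sh3kbp1 was instead lower in LPS mice, at 5.55 ± 0.156 against 6.55 ± 0.369 in saline mice (SD, n = 3 each). Ocrl had 66.1 ± 1.81 CPM in LPS and 61.8 ± 6.33 CPM in saline mice (SD, n = 3 each). The log2 differences were -0.05 (SE 0.0584) for Appl1, an OCRL-binding endosome protein, and -0.04 (SE 0.0661) for Inpp5b, the close relative of Ocrl.

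Among 37 other ARF-family GTPases and ARF exchange factors, edgeR, DESeq2 and limma-voom each called 0, and 3 had an unadjusted p under 0.05 (8.11%, against 7.17% of all rows). Groups did not overlap in 2 with LPS higher and 4 with LPS lower, together 16.2% of the list, against 13.7% of all rows. The closest relatives of Arl4d were among those not called. Arl4a had 35.8 ± 2.78 CPM in LPS and 35.6 ± 3.35 CPM in saline mice (SD, n = 3 each; log2 0.01, SE 0.0909). Arl4c had 59.5 ± 0.228 and 58.1 ± 1.64 CPM in LPS and saline mice (log2 0.04, SE 0.0554). The smallest p belonged to Trim23, a ubiquitin ligase with an ARF domain (log2 -0.18, SE 0.0624), and Arl13b, a GTPase of cilia (log2 -0.30, SE 0.104), with edgeR adjusted p of 0.543 and 0.548. Cyth3, which codes for a cytohesin, was the third, at 0.17 (SE 0.0717, edgeR adjusted p = 0.696). Arf6, a GTPase that cytohesins activate at the plasma membrane, had a log2 difference of 0.15 (SE 0.0828).

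Lists of chromatin and transcription partners held no called gene either. Of 18 measured HMG family and related genes, edgeR, DESeq2 and limma-voom called 0 and 0 had an unadjusted p under 0.05. Groups did not overlap in 2 with LPS higher and 1 with LPS lower, together 16.7% of the list, against 13.7% of all rows. Log2 differences ran from -0.20 for Hmgxb4 to 0.26 for Hmgb1. The smallest p in this list belonged to Hmgb3 (log2 0.17, SE 0.0916) and Tox4 (log2 -0.11, SE 0.0614). Of 26 histone chaperone genes, the same tools called 0, 3 reached an unadjusted p under 0.05 (11.5%, against 7.17% of all rows), and log2 differences had a median of -0.02. Groups did not overlap in 3 with LPS higher and 3 with LPS lower, together 23.1% of the list, against 13.7% of all rows. Nap1l2, a neuronal nucleosome assembly gene, had -0.22 (SE 0.0756) and Ubn2, a subunit of the HIRA complex, 0.18 (SE 0.0673), with edgeR adjusted p of 0.545 and 0.627.

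Of 36 genes of the little and super elongation complexes and Integrator, which processes small nuclear RNAs, the 3 tools called 0 and 5 had an unadjusted p under 0.05, or 13.9% against 7.17% of all rows. Groups did not overlap in 4 with LPS higher and 4 with LPS lower, together 22.2% of the list, against 13.7% of all rows. The other subunits of the little elongation complex were not called. Ice2 had 5.40 ± 1.04 CPM in LPS and 6.20 ± 1.17 CPM in saline mice (SD, n = 3 each; log2 -0.20, SE 0.185), Zc3h8 had a log2 difference of -0.04 (SE 0.152), and Ell, an elongation factor, 0.22 (SE 0.0760, edgeR adjusted p = 0.536). The smallest p belonged to Hexim1, an inhibitor of the elongation kinase P-TEFb (log2 -0.23, SE 0.0631), and Cdk9, the catalytic subunit of that kinase (log2 0.19, SE 0.0553), with edgeR adjusted p of 0.378 and 0.420.

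Of 23 measured axonemal dynein and assembly genes, edgeR, DESeq2 and limma-voom called 0, and log2 differences had a median of -0.01. An unadjusted p under 0.05 was reached by 2 (8.70%, against 7.17% of all rows). These 2, Dnah1 and Dnaaf5, were also higher in every LPS library than in any saline library, and 0 members were lower in every LPS library. Groups thus did not overlap in 8.70% of the list, against 13.7% of all rows. The 8 other heavy chain genes with a row ran from -0.21 for Dnah5 to 0.40 for Dnah1. Dnah1, another axonemal heavy chain, had 8.42 ± 1.44 CPM in LPS and 6.40 ± 0.369 CPM in saline mice (SD, n = 3 each; SE 0.144, edgeR adjusted p = 0.582), and Dnaaf5, an assembly factor, had a log2 difference of 0.27 (SE 0.118, edgeR adjusted p = 0.696). The largest log2 difference in the list, 1.42 for the light chain gene Dnal1, came from LPS 1, since its counts were 5101, 920 and 656 in the LPS libraries, against 868, 676 and 805 in the saline libraries. Of 26 cytoplasmic dynein and dynactin genes, 0 were called by the 3 tools and 3 had an unadjusted p under 0.05 (11.5%, against 7.17% of all rows). Groups did not overlap in 2 with LPS higher, Dynlt1b among them, and 1 with LPS lower, together 11.5% of the list, against 13.7% of all rows. The smallest p were those of Dync2h1, the heavy chain of ciliary transport (log2 -0.31, SE 0.0862, edgeR adjusted p = 0.369), and the light chain gene Dynlt1b (log2 0.42, SE 0.178, edgeR adjusted p = 0.695).

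Of 22 markers of the ependyma, the ciliated lining of the ventricles in which axonemal dyneins are abundant, 11 had a row. The other 11 could not be read. The 11 measured markers summed to 40.9 to 43.3 CPM in LPS libraries and 43.7 to 48.7 CPM in saline libraries, the opposite direction to Dnah6. Here edgeR, DESeq2 and limma-voom called 0, with 1 at an unadjusted p under 0.05 (9.09%, against 7.17% of all rows). Groups did not overlap in 2, both with LPS lower, or 18.2%, against 13.7% of all rows. The part of ependymal cells in the level of Dnah6 was not tested. Foxj1, the master regulator of motile cilia, had 3.17 ± 0.822 CPM in LPS and 3.34 ± 0.422 CPM in saline mice (SD, n = 3 each). Cfap43 (log2 -0.56, SE 0.232) and Cfap54 (log2 -0.32, SE 0.149), genes of axoneme proteins, had the smallest p, with edgeR adjusted p of 0.689 and 0.710. Of 8 choroid plexus markers only Kl had a row, at 3.81 ± 0.599 CPM in LPS and 3.39 ± 0.912 CPM in saline mice.

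Lists of other cell types held 0 called members by the 3 tools. Of 14 excitatory neuron, 11 inhibitory neuron, 20 glial and vascular and 12 striatal and meningeal markers, 0, 4, 2 and 1 had an unadjusted p under 0.05. For inhibitory neurons this was 36.4% of the markers, all with LPS higher. Of all rows, 7.17% passed in either direction, and 517 of 14250 passed with LPS higher. Groups did not overlap in 5 inhibitory neuron markers, or 45.5%, each with LPS higher, against 6.84% of all rows in that direction. Inhibitory neuron markers summed to 978 to 1072 CPM in LPS libraries and 932 to 959 CPM in saline libraries, so the sums did not overlap. Dlx1 (log2 0.33, SE 0.0819) and Gad2 (log2 0.27, SE 0.0788), a GABA-synthesis gene, had the smallest p there, with edgeR adjusted p of 0.307 and 0.414. The part of these cells in the levels of the 6 genes was not tested.

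**Figure D3:**
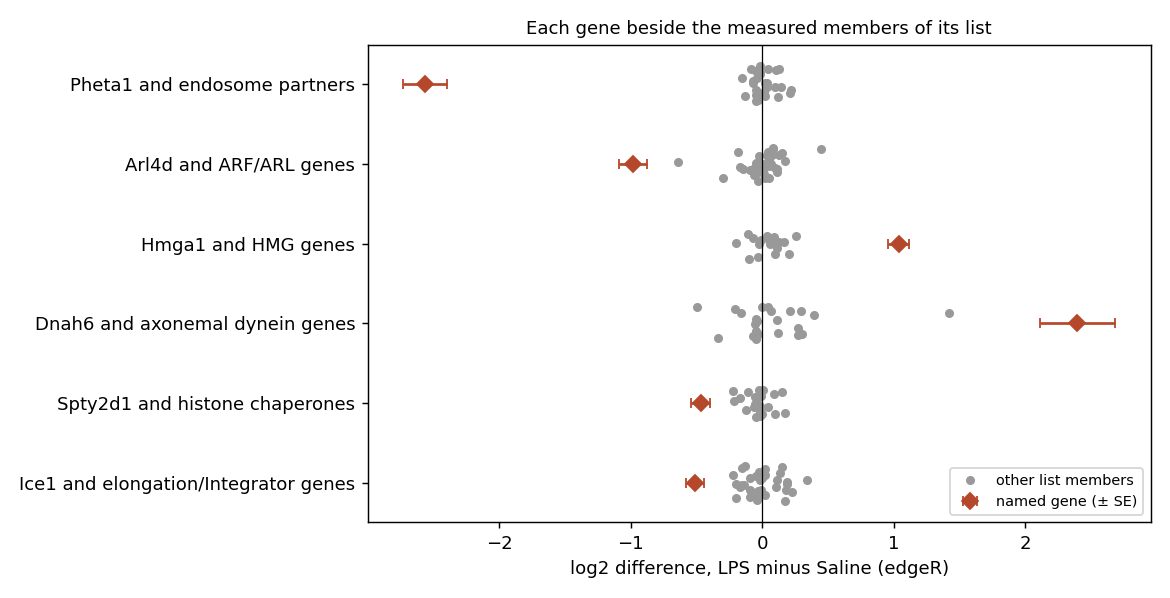
Log2 difference, LPS minus saline, of each of the 6 genes (red diamonds, with SE) and of the measured members of the list of its relatives or partners (grey points, spread vertically for sight only). The grey points centre near 0 in every list, with medians from -0.03 to 0.05, and the far point in the axonemal dynein list is Dnal1 at 1.42.

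Genes next to the 6 on the chromosome were read from the same fit. Within 500 kb of the 6 genes lay 80 other tested genes, from 1 around Ice1 to 28 around Arl4d. In edgeR, DESeq2 and limma-voom 0 were called, 4 reached an unadjusted p under 0.05 (5.00%, against 7.17% of all rows), and log2 differences had a median of 0.01. Cux2, an upper-layer neuron transcription factor gene, ends 1.7 kb from Pheta1 on the opposite strand and had 148 ± 22.5 CPM in LPS and 145 ± 18.2 CPM in saline mice (SD, n = 3 each). Sh2b3, an adaptor gene 11.3 kb to the other side of Pheta1, had a log2 difference of -0.08 (SE 0.0856). Beside Arl4d, Rdm1 and Dhx8 had -0.22 (SE 0.177) and -0.05 (SE 0.0781).

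The nearest genes of the others were not called either, and 1 of them had an unadjusted p under 0.05. Grm4, a metabotropic glutamate receptor gene 35.1 kb from Hmga1, had 27.1 ± 0.733 CPM in LPS and 21.6 ± 4.37 CPM in saline mice (SD, n = 3 each; log2 0.33, SE 0.139, edgeR adjusted p = 0.696), and Nudt3 on the other side had a log2 difference of 0.06 (SE 0.0743). Beside Dnah6, Tmsb10 and Suclg1 had 0.03 (SE 0.0729) and -0.01 (SE 0.0672). Beside Spty2d1, Uevld and Tmem86a had -0.17 (SE 0.106) and 0.03 (SE 0.116), and Adamts16, the only neighbour of Ice1, had -0.01 (SE 0.195). The smallest p among all neighbours were those of Wnk4, a kinase gene 388.1 kb from Arl4d (log2 0.74, SE 0.212), and Vat1, 199.3 kb from it (log2 0.16, SE 0.0639), with edgeR adjusted p of 0.416 and 0.644. Both were higher in LPS mice, where Arl4d was lower.

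**Figure D4:**
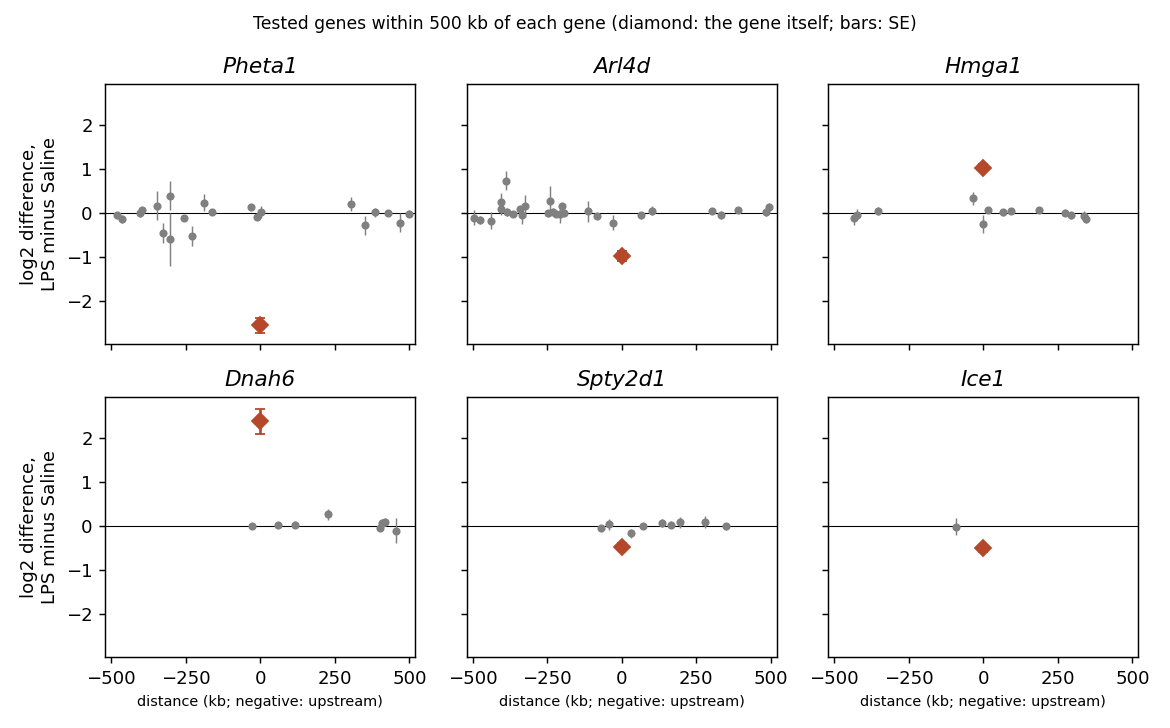
Log2 difference, LPS minus saline, of the tested genes within 500 kb of each gene (grey, with SE), by the distance between gene edges in kb along the gene's strand, and of the gene itself (red diamond at 0). The neighbours lie between -0.60 and 0.74, and Ice1 has 1 neighbour.

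Each gene's profile was also set beside those of 13561 other annotated rows, by the root mean square distance of log2 CPM values centred on the gene's own mean over the 6 libraries. Treatment dominates these profiles, so the measure largely finds rows with a like difference between the groups. Nearest to Pheta1 was Cyr61, a secreted matrix protein gene that was also in the list of immediate early genes, at 0.209 log2 units. Next were Apold1, an endothelial early response gene, at 0.284, and the ribosomal protein gene Rps27 at 0.357. Nearest to Arl4d were the histone demethylase gene Kdm2a at 0.118, the immediate early gene Nr4a1 at 0.123 and Asb16 at 0.134. Asb16 lies 600.9 kb from Arl4d on the same chromosome and had 1.81 ± 0.259 CPM in LPS and 3.15 ± 0.252 CPM in saline mice (SD, n = 3 each).

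Nearest to Hmga1 were the Notch target gene Hes5 at 0.122, the cytokine receptor subunit gene Csf2ra at 0.129 and the collagen gene Col14a1 at 0.147. Of the deposited rows, only 9, Dnah6 itself included, differed between the groups by at least as much as Dnah6. No row had under 185 counts over the 6 libraries, and Dnah6 had 17, 16 and 28 in saline libraries. Dnah6 may thus have a row only through its LPS counts. Its nearest rows were Wrb, which codes for a receptor of tail-anchored protein insertion, at 0.289, and Zfand2a and B3galt1, at 0.589 and 0.625. Spty2d1 and Ice1 had closer rows, where 651 and 525 rows differed by at least as much as each of them. Nearest to Spty2d1 were Hsf4 at 0.0394, Aif1 at 0.0576 and Fam205c at 0.0626, and nearest to Ice1 were Aif1 at 0.0517, Cdc42ep3 at 0.0685 and Casp6 at 0.0792. Among the 6, Spty2d1 and Ice1, whose log2 differences were the smallest, lay closest, at 0.0916. Pheta1 and Dnah6, whose differences were the largest and opposite in direction, lay farthest apart, at 2.45. These distances follow from the differences that chose the genes and support nothing further.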

How the data were processed

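The authors' deposited table gives unnormalized counts and FPKM, per the file headers, for 14250 rows in each library. It does not hold every gene. The smallest row total over the 6 libraries was 185 counts, so genes with fewer counts have no row. The submitters' processing notes name TopHat2 2.1, DESeq 1.10.1 and GRCm38. The sources used here do not give their roles, the counting program or the annotation. The 6 genes and all lists were chosen with earlier results of these data known.

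Counts of all 14250 rows and 6 libraries were tested with edgeR 4.0.16 (quasi-likelihood, robust, TMM) in R 4.3.3, treatment as the only term. The filter filterByExpr removed 0 rows. P-values were two-sided and Benjamini-Hochberg adjusted over all rows, with a threshold of 0.05. The test was checked on simulated counts. Alternatives used DESeq2 1.42.0, limma 3.58.1 (voom, or log2 of FPKM + 1 or + 0.1), RLE factors, other filters and left-out libraries. Positions came from GENCODE M21 and promoters from RefSeq (GRCm38.p6). All 6 symbols matched both.

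Named genes are the 6, their closest relatives, the 2 smallest p and called genes of each list, nearest neighbours and the 3 most alike profiles. The called immediate early genes are given as a count. Other genes (Ocrl, Appl1, Inpp5b, Hmga1b, AI413582, Cyth3, Arf6, Zc3h8, Ell, Dnal1, Foxj1) and the extremes of lists were named after their values were seen. No libraries were near-duplicates (chi-square per degree of freedom at least 32.1).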

Additional observations from a re-analysis of the deposited data

How the results depend on the processing

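The direction of the log2 difference of each of the 6 genes was the same under every alternative run. With the authors' FPKM in limma, log2 differences were smaller for Pheta1 (-1.20 with a pseudocount of 1, -1.83 with 0.1), Hmga1 (0.76 and 0.81) and Dnah6 (0.21 and 1.13), and for Spty2d1 (-0.39 with a pseudocount of 1). The pseudocount shrinks low values by construction. For Pheta1 and Hmga1 the FPKM per count also differed. Summing Hmga1 with Hmga1b, added after seeing the data, gave 0.67 for Hmga1. Leaving out 1 library gave -2.63 to -2.46 for Pheta1, -1.08 to -0.90 for Arl4d, 1.00 to 1.06 for Hmga1, 2.23 to 2.71 for Dnah6 (2.71 without Saline 3), -0.50 to -0.44 for Spty2d1 and -0.56 to -0.46 for Ice1.

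Over all rows, 14 were called higher and 27 lower, with 517 and 505 at an unadjusted p under 0.05. DESeq2 called 60 and 80, and rows called higher were 8 with either FPKM pseudocount and 23 at a threshold of 0.1. Left-out libraries gave 14 to 20 higher and 22 to 35 lower. Immediate early genes called lower were 20 with DESeq2, against 10, and 7 to 12 with a library left out. The lists of relatives and cell types and the neighbours had 0 called members under each alternative. Apart from the threshold, the cause of these changes was not tested.

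With the replicate number as a replicate block, 10 rows were called higher and 21 lower, and the log2 difference of Pheta1 was -2.56. Spty2d1 and Ice1 missed the threshold under the block and in limma on log2(FPKM + 1), as did Dnah6 in the last. Same-numbered libraries did not deviate together (correlations of -0.03, 0.03 and 0.04), so the numbers are not taken to pair mice. Precision is limited by 3 mice a group and, for Dnah6, by 16 to 28 counts in saline libraries.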
